A study of Mus musculus with 24 samples.

Results

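Reduced representation bisulfite sequencing (RRBS) cuts DNA with MspI at CCGG and scores, at the CpGs of the resulting fragments, whether the cytosine was protected from conversion by methylation. The fragments described here are those that the authors' annotation placed in an intron, outside a CpG island core, over 2000 bp from a CpG island and over 2000 bp inside the gene measured from its start. They numbered 13235 of the 65535 fragments in the table, or 20.2%, and none of these criteria uses a methylation value. They lay in 2036 named genes, with 4686 on chromosome 1, 6038 on chromosome 2 and 2511 on chromosome 3, where the table ended at position 136670346. The genome beyond that position was not analysed here.

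The samples were brown adipose tissue (BAT) of C57BL/6J female mice at postnatal day (PND) 12, in 24 libraries. In 12 of them (DDT) the dams had been gavaged from mid-gestation until shortly after birth with p,p'-DDT and o,p'-DDT together in olive oil. In the other 12 (VEH) the dams had received olive oil alone over the same period. Each library was a pool of female littermates, so that a litter and not a pup was the replicate. The tissue was sequenced whole, so that a level is an average over all its cell types, and a shift in cell makeup cannot be told apart from a shift within cells. No expression was measured in these libraries, and the tissue label was not checked against markers.

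CpG methylation is the default state of mammalian DNA between regulatory elements, and the bodies of genes usually carry it. CpG islands and active promoters are the main exception and stay largely free of it. Introns also hold enhancers and alternative promoters, at which methylation is low or varies between tissues, so that intronic DNA is a mixture of methylated body and unmethylated elements.

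Sequences of 6 intronic fragments are shown because the results below turn on them. All are from the GRCm38 assembly, plus strand, 5′ to 3′, and capitals mark the CpGs. The first pair are adjoining fragments of the Agap1 intron 13 at chr1:89831032-89831072 and chr1:89831073-89831166, and the next pair adjoin each other in intron 16 at chr1:89869160-89869206 and chr1:89869207-89869361. These neighbours had very different levels. The Dcun1d1 fragment at chr3:35932396-35932451 was among the least methylated members, and the Bmp7 fragment at chr2:172897008-172897099 among those with the smallest p between DDT and VEH.
Agap1 intron 13, first fragment: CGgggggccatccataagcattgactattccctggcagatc
Agap1 intron 13, next fragment: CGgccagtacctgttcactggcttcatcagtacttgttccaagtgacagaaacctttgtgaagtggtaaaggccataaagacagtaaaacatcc
Agap1 intron 16, first fragment: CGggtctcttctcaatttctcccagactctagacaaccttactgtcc
Agap1 intron 16, next fragment: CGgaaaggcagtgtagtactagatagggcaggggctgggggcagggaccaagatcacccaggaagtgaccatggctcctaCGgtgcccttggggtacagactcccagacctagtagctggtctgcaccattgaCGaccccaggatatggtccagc
Dcun1d1 intron 1: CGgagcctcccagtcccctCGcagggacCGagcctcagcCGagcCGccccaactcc
Bmp7 intron 2: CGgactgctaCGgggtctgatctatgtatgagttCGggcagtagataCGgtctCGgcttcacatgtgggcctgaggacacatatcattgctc

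A methylation level was the percentage of a fragment's CpG calls that were methylated, and needed at least 10 calls in the library. A read over several CpGs gives a call for each, so that calls are not counts of reads. Fragments entered the test if 8 or more libraries per group gave a level. This held for 3076 members (23.2%) in 1068 genes, and 1114 members had a level in all 24 libraries. Of the others, 2900 had no call in any library. Tested members were short, with a median of 53 bp against 111 bp over all members, and held a median of 2 CpGs and at most 34. The median tested member lay 30734 bp from its gene's start and 82268 bp from a CpG island. The 1114 members with a level in all 24 libraries were CpG-richer, with a median of 4 CpGs. Their mean VEH level was 35.2% ± 0.730, against 52.1% ± 1.11 over all tested members. DDT replicate 4 gave a level for only 1337 of the 3076. Values over the 1114 therefore describe a less methylated subset and not the tested members as a whole.

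Libraries held between 8371958 and 14124652 CpG calls in all, of which members took 7.82% to 12.1%. Calls per tested member had library medians of 135 to 240 in VEH and of 110 to 235 in 10 of the DDT libraries. DDT replicates 4 and 12 stood apart, with medians of 5 and 92.0 calls, and had the lowest mean member levels of all libraries. Their calls in all were not few, at 12788050 and 13550104 against a DDT median of 11766410. Members took 7.82% and 8.81% of them. Comparisons of DDT with VEH are therefore also given without them. Calls come from reads without molecular identifiers, so that copies of a molecule cannot be told apart and depth may overstate the independent counts.

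The intronic label was compared with GENCODE M21 on the same assembly. Of the tested members, 733 (23.8%) overlapped an exon of some transcript, 975 (31.7%) lay within 1000 bp of a transcript start, and 896 (29.1%) sat in a 200 bp window with a GC content above 50% and an observed to expected CpG ratio above 0.6, the usual island criteria. In all 1255 tested members had at least one of the last 2 features, although all were over 2000 bp from the start of the gene that the authors' table names. Measured to the island edges, 95 members lay within 2000 bp of an island and 1 touched it. The 25 tested ones among these 95 had a mean VEH level of 27.9%.

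Over all tested members, intronic levels in infant BAT were most frequent at 2 extremes. The median tested member had a VEH level of 59.4%, and the quartiles were 12.0% and 90.4%. Under 20% were 1060 members (34.5%), at 80% or above were 1119 (36.4%), and 897 (29.2%) lay between. These shares differed with fragment length. Of the tested members of 48 bp or less, 21.6% lay under 10%, 17.0% at 10 to 20%, 38.8% at 20 to 80% and 22.6% at 80% or above. Of those of 52 bp or more, the shares were 22.5%, 10.1%, 21.1% and 46.3%. Exons chosen by the same distances had 27.1% under 20% and 43.8% at 80% or above, and fragments 5 to 50 kb upstream of genes gave 36.2% and 35.2%. The spread was smaller at the extremes, where a percentage has less room: the median SD over VEH libraries was 2.28 percentage points under 20%, 2.46 at 80% or above and 5.59 between them.

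**Figure D1:**
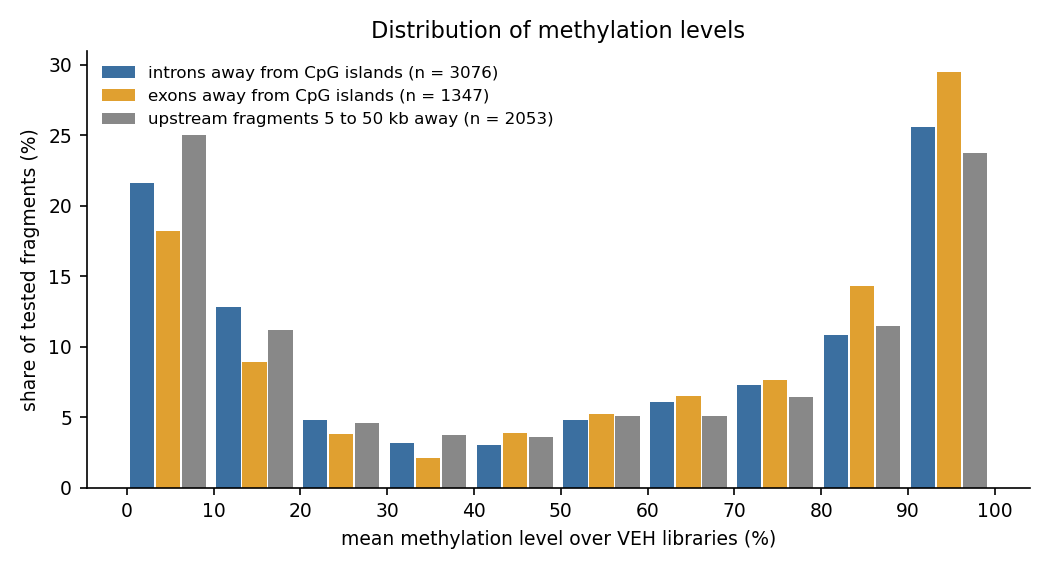
Share of tested fragments (vertical axis, %) by mean methylation level over the VEH libraries (horizontal axis, %, in bins of 10), for the intronic members and for exon and upstream fragments chosen by the same distance from CpG islands. The outer bins are the fullest: 21.6% of the 3076 intronic fragments lay under 10% and 25.6% at 90% or above.

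The 665 members under 10% carried a median of 6 CpGs, against 2 in those at 90% or above. Of these 665, 82.9% lay within 1000 bp of a GENCODE transcript start, 83.3% met the island criteria, and 57.1% of those with an intron number were in a first intron. The corresponding shares in the 786 members at 90% or above were 11.1%, 11.5% and 19.7%. Low levels thus sat mostly where a transcript start, of the named gene or another, or island-like base composition was found. Members that met both conditions averaged 10.3% ± 0.362 (SD over 12 VEH libraries; 616 fragments), and those that met neither averaged 67.3% ± 1.39 (1821 fragments).

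The least methylated members with a level in all 24 libraries, taken 1 per gene, illustrate this group. The Dcun1d1 fragment (chr3:35932396-35932451, 5 CpGs, intron 1 of a gene that encodes a cullin neddylation factor) lay 62 bp from a transcript start. It had VEH levels with a lowest value of 0%, a median of 0.137% and a highest of 1.73%, and DDT levels of 0%, 0.224% and 1.55%. All 24 libraries were therefore close to 0, and the groups overlapped. The next ones were in Brd3, a bromodomain reader of acetylated histones (mean VEH level 0.413% ± 0.567, n = 12), Rab13, a small GTPase of vesicle traffic (0.476% ± 0.478), and Sys1, a Golgi protein (0.553% ± 0.391). They lay between 26 and 375 bp from a transcript start, and 3 of the 4, those of Dcun1d1, Brd3 and Sys1, overlapped no exon. A level this low was also found far from any annotated start. The Itpkb fragment at chr1:180387501-180387556, in intron 2 of a gene for an inositol trisphosphate kinase, lay 11057 bp from the nearest one and averaged 0.551% ± 1.14 in 12 VEH and 0.438% in 11 DDT libraries.

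Level rose with distance from the gene start. Mean VEH levels were 31.9% ± 1.11 (SD, n = 12) at 2 to 5 kb, 40.1% ± 1.09 at 5 to 10 kb, 49.3% ± 1.26 at 10 to 20 kb, 55.0% ± 1.15 at 20 to 50 kb, 58.4% ± 1.35 at 50 to 100 kb and 63.2% ± 1.08 beyond 100 kb. Among members over 1000 bp from any transcript start the corresponding means were 46.5%, 60.6%, 63.1%, 66.8%, 67.5% and 70.1%. Over the 1114 members with a level in all 24 libraries, those within 10 kb averaged 21.1% ± 0.515 and those beyond 50 kb averaged 48.4% ± 0.853. The difference of -27.3 percentage points had the same sign in all 12 VEH libraries (-28.3 to -26.3) and an exact two-sided sign-flip permutation p = 0.000488, the smallest that 12 libraries allow. This p measures the spread between libraries and not between fragments, as do the others of its kind below, and over the 6 such contrasts the Benjamini-Hochberg adjusted p was 0.000488 for each.

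First introns were the least methylated. Mean VEH levels were 37.5% ± 0.930 in the first (864 members), 50.5% ± 1.35 in the second (431), 48.6% ± 1.72 in the third (252) and 66.7% ± 1.09 in the fourth or later (1058). Over members in all 24 libraries the first averaged 20.4% ± 0.555 and later ones 45.4% ± 0.875, a difference of -25.0 points (sign-flip p = 0.000488, same sign in 12 of 12 libraries). Position did not remove the order. Between 2 and 10 kb from the gene start first introns averaged 30.4% and later ones 46.0%, between 10 and 50 kb 41.2% and 59.4%, and beyond 50 kb 45.2% and 64.3%. Among members over 1000 bp from a transcript start they averaged 56.8% and 67.9%.

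CpG number moved with level too. Mean VEH levels were 55.9% ± 1.42 with 1 CpG (823 members), 66.4% ± 1.35 with 2, 62.1% ± 1.31 with 3, 49.4% ± 1.09 with 4, 37.6% ± 1.11 with 5 or 6 and 15.8% ± 0.610 with 7 or more (403 members). Over members in all 24 libraries those with 1 or 2 CpGs exceeded those with 5 or more by 37.1 points (53.5% and 16.4%, sign-flip p = 0.000488). Where the island criteria were not met this difference was 0.386 points (sign-flip p = 0.125), with 344 and 57 members. CpG-rich introns without island criteria were therefore not shown to differ from CpG-poor ones.

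**Figure D2:**
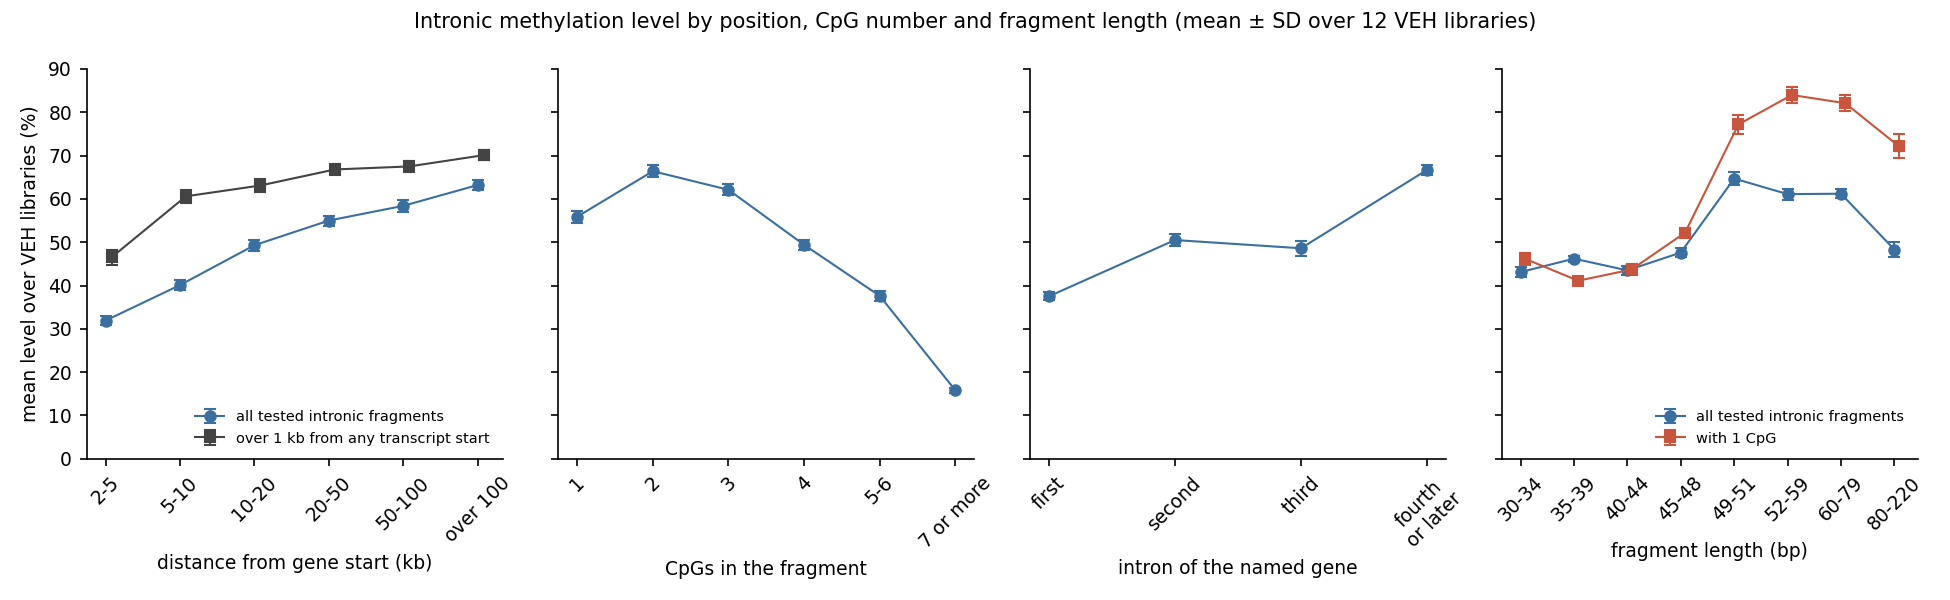
Mean methylation level over tested intronic fragments (vertical axis, %, mean ± SD over 12 VEH libraries) by distance from the gene start in kb, by number of CpGs, by intron of the named gene and by fragment length in bp. Squares in the first panel are members over 1 kb from any transcript start, and squares in the last panel are members with 1 CpG, which step up from 52.2% at 45 to 48 bp to 77.2% at 49 to 51 bp.

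CpG-rich introns stayed methylated inside repeats. Members without a repeat-masked base averaged 48.1% ± 1.15 (2312 members), partly masked ones 59.3% ± 1.14 (594) and wholly masked ones 80.5% ± 0.538 (170). The contrast was widest at 5 or more CpGs, where wholly masked members averaged 79.5% ± 0.940 (37 members) and unmasked ones 19.9% ± 0.644 (562). Methylation of interspersed repeats is a well-known feature of mammalian genomes. Reads from repeat copies may be placed on the wrong copy, and no value here bears on how often.

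Level changed stepwise with fragment length at about the 50 bases of a read. With 1 CpG, members of 48 bp or less averaged 45% ± 1.07 over VEH libraries (561 members, library range 42.8 to 46.6%), and members of 52 bp or more averaged 80.3% ± 1.94 (212 members, 75.7 to 82.5%). The ranges of the 12 libraries did not overlap. Within the short ones no trend with length was seen up to 44 bp, with means of 46.2% at 30 to 34 bp, 41.1% at 35 to 39 bp and 43.7% at 40 to 44 bp. With 2 CpGs the short and long means were 58.7% and 73.6%, with 3 CpGs 45.7% and 70.9%, with 4 CpGs 38.4% and 51.6%, and with 5 or more 13.3% and 28.6%. The step was not particular to introns: with 1 CpG it ran from 49% to 74.8% in exons and from 44.5% to 76.9% upstream.

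Level also differed with the length of the fragment in front. Long members with 1 CpG that directly followed a fragment of 48 bp or less averaged 45.6% ± 1.58 (33 members). Those that followed a long fragment averaged 86.5% ± 2.63 (46 members), and those with no adjoining fragment listed averaged 88.3% ± 1.78 (129 members). Of the 395 members with VEH levels from 10 to 20%, 171 (43.3%) were short with 1 CpG. The study's methods describe blunting of the MspI ends by end repair, and removal of the bases that this adds before counting is not given in the sources used here. Its part in these levels was not tested. The length classes and cut-offs were chosen after the levels were seen.

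Restricted to fragments of 52 bp or more, the contrasts above kept their sign and sign-flip p of 0.000488. Members within 10 kb were 26.3 points lower than those beyond 50 kb, first introns 23.9 points lower than later ones, and members with 1 or 2 CpGs exceeded those with 5 or more by 45.1 points. Long members with both promoter-like features averaged 11.1% ± 0.451 (352 members) and long members with neither 76.6% ± 1.51 (915 members). In the fourth or later introns long members averaged 74.4% ± 1.22.

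Exons and exon-intron boundaries chosen by the same distances were compared in the same libraries. Members in all 24 libraries averaged 35.2% ± 0.730, exons 44% ± 0.610 and boundaries 46.2% ± 0.780, so that introns were lower by 8.78 and 11 points (sign-flip p = 0.000488 for each). The difference from exons depended on which fragments were counted. It was -12.1 points where the island criteria were not met, -10 points with 6 classes of CpG number given equal weight and -1.88 points with introns over no GENCODE exon. Over 1000 bp from any transcript start it turned to 6.52 points higher in introns (551 and 372 fragments, sign-flip p = 0.000488). Restricted to 52 bp or more it was -7.98 points. Against boundaries, introns stayed lower by 6.53 points over 1000 bp from any transcript start (551 and 63 fragments). Introns exceeded upstream fragments by 1.85 points (33.4% ± 0.609 upstream, sign-flip p = 0.000488), by 0.590 points at 52 bp or more, and by 0.0311 points (sign-flip p = 0.655) where the island criteria were not met.

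Levels also changed over short distances within a gene. Of the 594 genes with at least 2 tested members, 184 (31.0%) had at least 1 under 20% and 1 at 80% or above, 51 had only members under 20% and 73 only members at 80% or above. Neighbouring members under 100 bp apart differed by a median of 6.22 points (837 pairs), and 82 pairs (9.80%) by 50 points or more. Neighbours 1 to 10 kb apart differed by a median of 22.3 points (394 pairs), and those more than 10 kb apart by 24.7 points (572 pairs). All these counts took fragments of every length, and short fragments were lower at equal CpG number, as described above. The part of fragment length in these differences was not tested.

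Agap1, which encodes an Arf GTPase-activating protein of endosomal traffic, had the most tested members, 34 along 427542 bp. Its levels ran from 0.774% to 99.5%, with 13 members under 20% and 10 at 80% or above. A cluster of 9 members in intron 1, from 125419 to 126934 bp past the gene start, had levels from 0.774% to 21.4%. It carried 5 to 15 CpGs per fragment and lay between 0 and 1437 bp from an annotated transcript start. Downstream, in introns 6 to 10, members with 2 to 4 CpGs reached 97.5%, 97.4% and 99.5%, and 1 member of intron 6 with 3 CpGs was low at 12.6% ± 4.56.

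The low values at the 3′ end of Agap1 were all short fragments with 1 CpG. In intron 13 the first fragment printed above (41 bp) averaged 11.7% ± 3.52 over VEH libraries, with a range of 6.90 to 17.4%, and the adjoining one (94 bp) averaged 87.0% ± 11.3, with a range of 54.8 to 97.7%. In intron 16 the pair (47 and 155 bp) averaged 13% ± 1.66 and 98.4% ± 1.02, at a median depth of 374 and 362 calls. The ranges of neighbours did not overlap in either pair, which were chosen after their values were seen.

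Dab2ip, a Ras GTPase-activating protein, had 29 tested members, of which 22 were under 20%. They formed 3 groups, at 23543 to 24770 bp, at 63650 to 63997 bp and at 103021 to 103923 bp from the gene start. All lay within 1000 bp of an annotated transcript start. Their highest levels were 19.2%, 4.09% and 14.5%. Between the groups, members at 49879, 50913 and 96839 bp reached 97.7% ± 0.957, 91.9% ± 2.93 and 97.9% ± 2.63. Beyond the last group the level was 52.2% at 104929 bp and 59.5% at 104997 bp.

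Cdh22, a cadherin of cell adhesion, had 23 tested members and no transcript start within 1000 bp of any of them. Low members were still present: 4.03% ± 2.73 at 19598 bp, 1.58% ± 3.23 at 39070 bp and 1.57% ± 1.29 at 67973 bp. These 3 fragments were 77, 109 and 61 bp long and held 7, 9 and 3 CpGs. High members lay at 17133 bp (90.8% ± 4.49) and 42847 bp (91.8% ± 4.98).

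**Figure D3:**
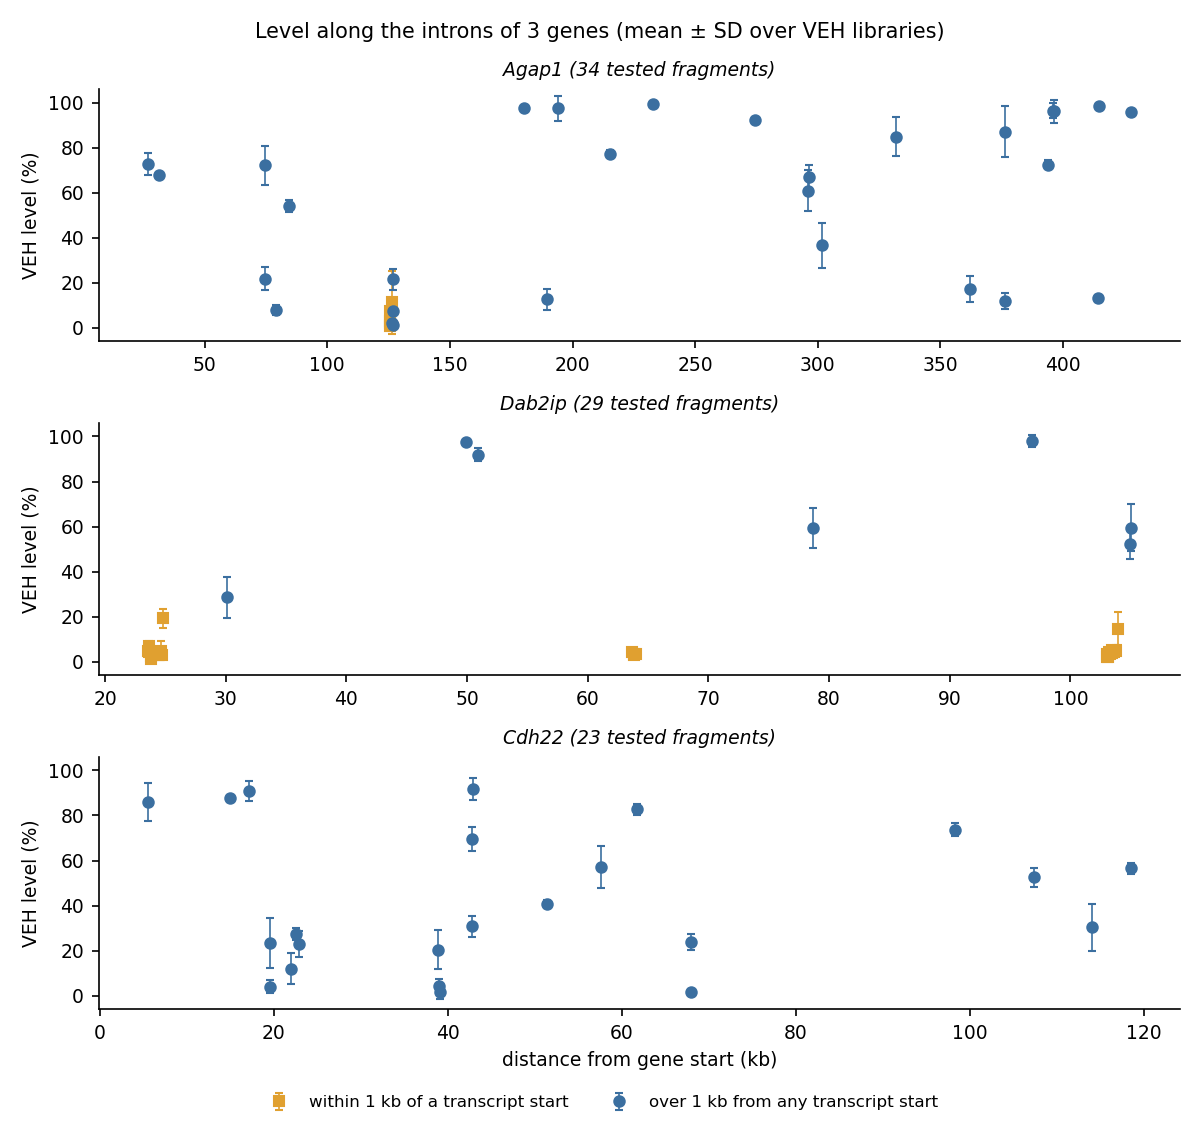
Mean methylation level ± SD over VEH libraries (vertical axis, %) of each tested intronic fragment against its distance from the gene start (horizontal axis, kb) in Agap1, Dab2ip and Cdh22, the genes with the most tested members. Squares lie within 1 kb of an annotated transcript start: in Dab2ip all of them are under 20%, and in Cdh22 there are none.

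Members of intermediate level differed widely in repeatability. Among those with the lowest SD over VEH libraries were 4 in Zbtb10, Prrc2b, Gpr158 and Pla2g4e. The Gpr158 fragment, in an orphan receptor gene, had VEH levels of 62.8% at the lowest, 64.2% at the median and 65.7% at the highest (SD 0.917), and DDT levels of 63.5%, 65.4% and 72.7%. The others averaged 67.5%, 76.0% and 76.4% in VEH with SDs under 1 point. All 4 were short, between 31 and 41 bp, and the fragments of Zbtb10, Gpr158 and Pla2g4e lay wholly in masked repeats.

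The 5 with the highest SD lay in Cercam, Nfatc2, Bcar3, Gnas and Nceh1. Gnas is an imprinted gene with several promoters that encodes the stimulatory G protein subunit of adrenergic signalling. Its fragment (chr2:174328491-174328543, 6 CpGs, 468 bp from a transcript start and over an exon of some transcript) ran from 14.5% to 75.4% over VEH libraries with a median of 59.5%, and from 8.54% to 99.0% over DDT libraries with a median of 39.4%, at 562 to 2267 calls. The DDT extremes were replicates 4 and 12, and the other 10 DDT libraries ran from 20.1% to 68.8%, within the VEH range. Nfatc2, a calcineurin-dependent transcription factor, ran from 4.17% to 81.2% in VEH at a depth that fell to 10 calls. Cercam ran from 20.5% to 92.0%, Bcar3 from 0% to 70.8% and Nceh1, a cholesterol ester hydrolase, from 23.9% to 72.5%. The same libraries recurred at the ends of these ranges. VEH replicate 8 was lowest in Cercam, Bcar3, Gnas and Nceh1, and VEH replicate 10 was highest in Cercam, Nfatc2, Bcar3 and Gnas. These libraries also had the lowest and the highest mean member level in VEH (33.6% and 36.4%), so that the spreads of these fragments are not independent. Their differences between DDT and VEH of -6.71 to -9.03 points (Cercam -7.76, Bcar3 -7.76) and of -6.08 points in Gnas had adjusted p of 0.869 to 0.883 by ANOVA over all 20225 tested fragments. Without DDT replicates 4 and 12 the differences were -7.38 points in Cercam, -5.48 in Nfatc2, -11.7 in Bcar3, -7.47 in Gnas and -2.31 in Nceh1, with adjusted p of 0.949 to 0.970.

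DDT and VEH were then compared, the question of the study being whether perinatal DDT exposure changes methylation in BAT. Mean member levels, over members in all 24 libraries, ran from 33.6% to 36.4% in VEH with a median of 35%, and from 30.3% to 36.3% in DDT with a median of 34.9%. The lowest were DDT replicate 4 at 30.3% and DDT replicate 12 at 32.5%, and the other DDT libraries (34.1 to 36.3%) lay within the VEH range. The means were 34.5% ± 1.7 in DDT and 35.2% ± 0.730 in VEH, a difference of -0.687 points (two-sided permutation p = 0.223, n = 12 and 12). Without DDT replicates 4 and 12 it was -0.108 points over the 2404 members with a level in all remaining libraries (48.2% and 48.3%, permutation p = 0.794). The part of depth at members in the lower levels of these 2 libraries was not tested.

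**Figure D4:**
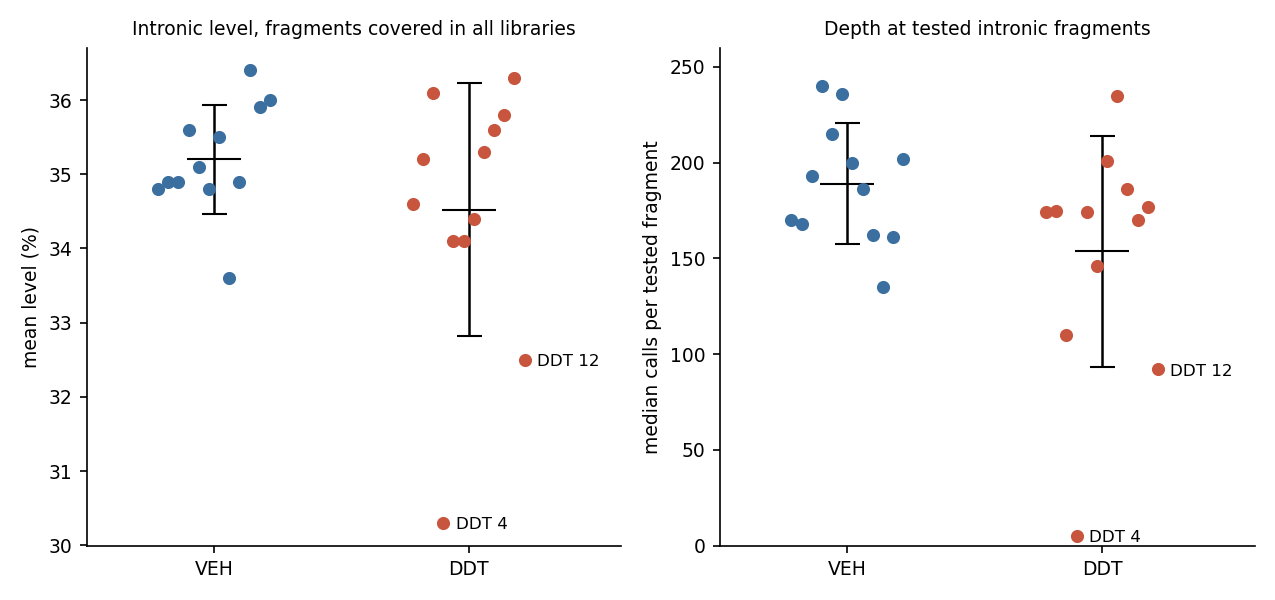
Mean level over the 1114 intronic fragments with a level in every library (left, %) and median calls per tested intronic fragment (right) for each of the 12 VEH and 12 DDT libraries, with the mean ± SD of each group in black. DDT replicates 4 and 12 are lowest in both panels, at 30.3% and 32.5% and at 5 and 92.0 calls.

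The gap between introns and exons was -8.95 points ± 0.307 in DDT and -8.78 ± 0.246 in VEH, and their difference of -0.167 points was within the spread between libraries (permutation p = 0.159). Without DDT replicates 4 and 12 it was -0.0590 points (permutation p = 0.556). By level class, members under 20% averaged 6.53% ± 0.345 in VEH and 6.55% ± 0.828 in DDT, and members at 80% or above 91.7% ± 0.497 and 91.2% ± 1.67. Those between averaged 52.2% ± 2.27 and 49.8% ± 4.71, and the 10 DDT libraries without replicates 4 and 12 averaged 6.64% ± 0.884, 91.9% ± 0.364 and, between, 51.6% ± 1.85. These class values are descriptions.

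No single member passed the threshold of 0.05 after Benjamini-Hochberg adjustment of the ANOVA p over all 20225 tested fragments: 0 of 3076, with a smallest adjusted p of 0.869, where 0% of all fragments passed. Quasi-binomial regression and limma also called 0. At an unadjusted p under 0.05 there were 157 members (5.10%) by ANOVA, against 4.18% of all tested fragments, 245 by quasi-binomial regression (7.96%, against 7.72% of all) and 125 by limma (4.06%, against 3.51%). Of the 157, in 136 genes, 48 were higher in DDT (1.56% of tested members, against 1.25% of all) and 109 lower, with differences from -18.6 to 19.4 points. The 48 were 30.6% of the 157, close to the 29.8% that were higher in DDT among all fragments under 0.05. In 58 of the 157 the groups differed by 5 points or more, and the share of all fragments under 0.05 that did so is not given here. Without DDT replicates 4 and 12, 152 of 2990 members were under 0.05 (5.08%, against 4.51% of all), of which 66 were higher in DDT, and 95 members were among both the 157 and the 152.

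The 9 members with the smallest unadjusted p lay in Etl4, Obsl1, Slc12a5, Aim2, Fmnl2, Disp2, Bmp7, Agap1 and Egfem1, with 5 higher and 4 lower in DDT and an adjusted p of 0.869 for each. Of these fragments 6 were of 48 bp or less, those in Etl4, Aim2, Fmnl2, Disp2, Agap1 and Egfem1. Those in Obsl1, Slc12a5 and Disp2 overlapped a GENCODE exon of some transcript, and those in Obsl1 and Slc12a5 had no intron number. The 9 are described by their values, since choosing them by p leaves no test. Without DDT replicates 4 and 12 each kept its direction. The 8 that could still be tested had an adjusted p of 0.949 each, and the Bmp7 fragment was left with 7 DDT libraries, under the minimum for the test.

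Bmp7 encodes a secreted signal that promotes brown fat differentiation. Its fragment (chr2:172897008-172897099, 5 CpGs, intron 2, 43312 bp from the gene start) had VEH levels of 92.2% at the lowest, 95.2% at the median and 100% at the highest in 10 libraries, and DDT levels of 81.8%, 88.5% and 96.2% in 8. In DDT 5 of 8 libraries were below every VEH library, and 7 of 8 below the VEH median. The means were 96.2% ± 3.40 and 89.5% ± 4.36, a difference of -6.67 points (ANOVA p = 0.00215, adjusted p = 0.869), at 11 to 87 calls per library. With 5 CpGs in the fragment these calls come from fewer reads. The lowest DDT level, in replicate 9, rested on 11 calls, and the VEH levels of 100% on 20 to 31. The 7 DDT libraries without replicates 4 and 12 averaged 89.7% ± 4.67, a difference of -6.48 points. The gene's other tested members did not share this fall. They differed by 3.63, -0.748, 3.51 and 2.32 points (unadjusted ANOVA p from 0.379 to 0.764), and the median over all 5 was 2.32 points.

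The short Agap1 fragment of intron 13 had a VEH median of 11.7% and a DDT median of 5%, with DDT levels from 0% to 13.8%. In DDT 8 of 11 libraries were below every VEH library. The difference was -5.57 points (6.13% ± 4.14 in DDT, ANOVA p = 0.00217, adjusted p = 0.869), and -4.96 points in 10 DDT libraries without replicates 4 and 12. Its long neighbour averaged 87.1% ± 10.7 in DDT, next to 87.0% in VEH.

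Aim2, a cytosolic DNA sensor, went the other way at its 1 CpG (chr1:173404940-173404980, intron 2). VEH levels were 4.21%, 9.79% and 12.5% at the lowest, median and highest, and DDT levels 7.62%, 14.7% and 19.7%. In DDT 7 of 10 libraries were above every VEH library, and the difference was 4.95 points (ANOVA p = 0.00125, adjusted p = 0.869). DDT replicates 4 and 12 gave no level here.

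Egfem1, which encodes an EGF-like domain protein, differed by 6.82 points (81.0% ± 3.77 in VEH, 87.8% ± 6.28 in DDT), with 6 of 12 DDT libraries above every VEH library. The 2 highest of these were replicates 12 and 4, and without them the difference was 4.55 points (85.5% ± 3.69, ANOVA p = 0.01, adjusted p = 0.949), with 4 of 10 above every VEH library. The Fmnl2 and Disp2 fragments were nearly fully methylated and differed by 1.19 and 2.92 points, and by 1.11 and 2.71 points without those replicates. Fmnl2 encodes a formin that assembles actin. Slc12a5, a potassium chloride cotransporter, was nearly unmethylated (5.25% ± 1.25 and 3.43% ± 1.16), with 5 of 12 DDT libraries below every VEH library, and with 3 of 10 and a difference of -1.45 points without DDT replicates 4 and 12. Etl4 and Obsl1 differed by 8.36 and -1.63 points, and by 9.05 and -1.64 points without them.

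**Figure D5:**
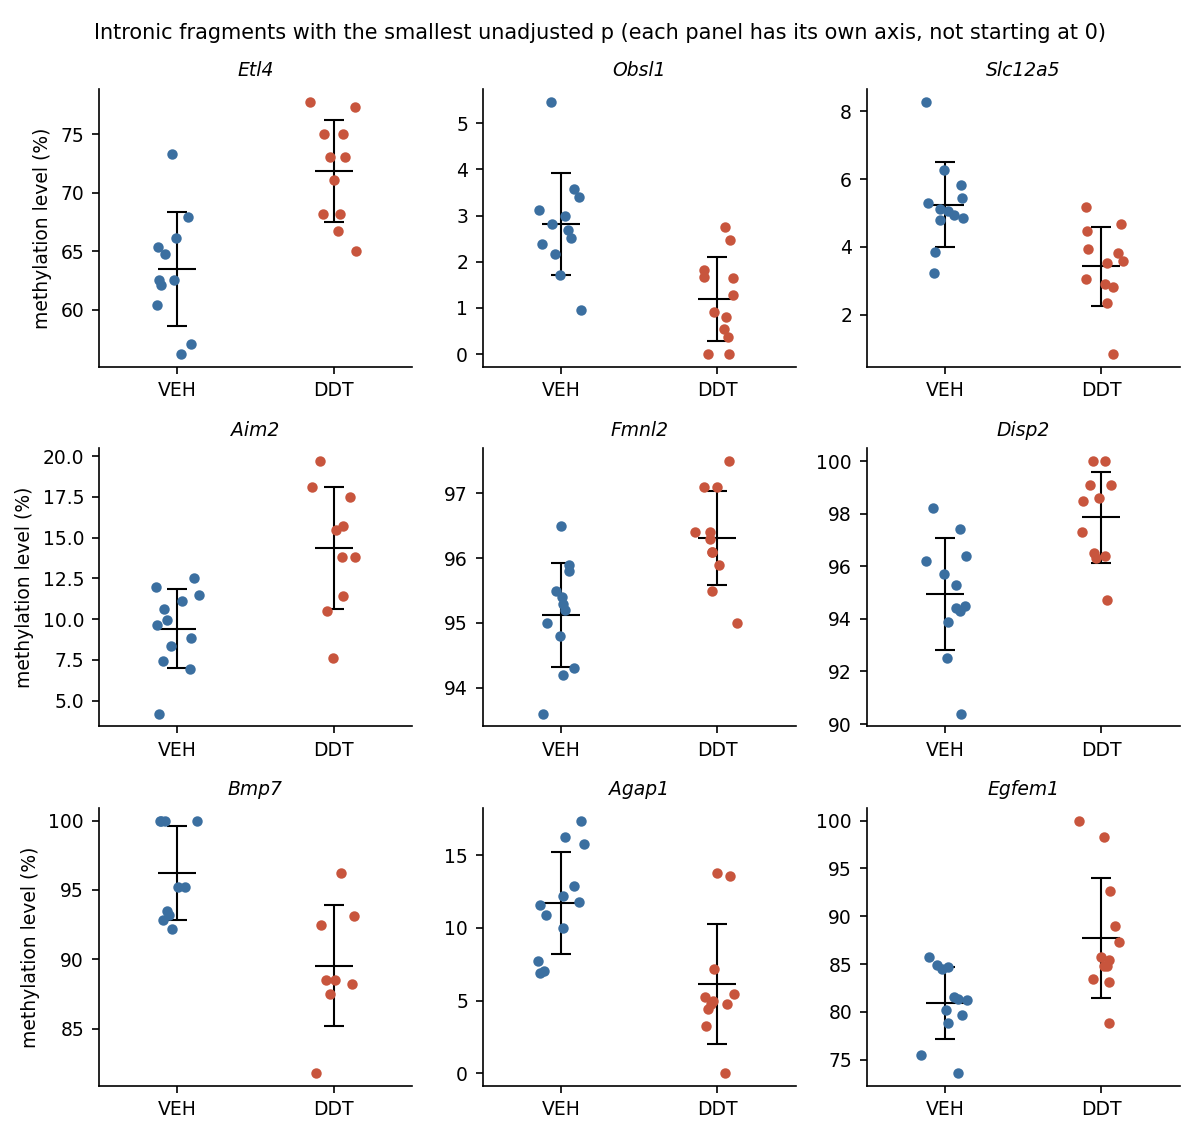
Methylation level (vertical axis, %, a separate range for each panel that does not start at 0) in each VEH and DDT library for the 9 intronic fragments with the smallest unadjusted p, with the mean ± SD of each group in black. Points of the groups overlap in every panel, and 5 fragments are higher and 4 lower in DDT. The fragments of Obsl1, Slc12a5 and Disp2 also overlap a GENCODE exon.

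Genes of 4 lists relevant to BAT or to long genes on these chromosomes were read across their introns. Beside their counts at an unadjusted p under 0.05 stand 4.18% of all tested fragments and 5.10% of tested members, and without DDT replicates 4 and 12 4.51% and 5.08%. Of the list for brown fat and adipocyte differentiation, 11 genes held 31 tested members with a median VEH level of 64.0%, and 9 of the 31 were under 20%. At an unadjusted p under 0.05 there was 1 of 31 (3.23%, against 4.18% of all), the Bmp7 fragment above, and 0 of 29 without DDT replicates 4 and 12. Acvr1c, an activin receptor of adipocytes, ran from 13.4% to 96.0% over 4 members, and Rxra, the partner of many nuclear receptors, from 10.3% to 95.2% over 4. All 4 members in Lmna, which encodes the nuclear lamins A and C, were low, from 3.76% to 11%, and the 3 members in Ncoa3, a nuclear receptor coactivator, were high, from 76.9% to 94.9%.

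The list for lipid handling and fuel oxidation had 31 tested members in 14 genes with a median VEH level of 82.1%, where 16 were at 80% or above. At an unadjusted p under 0.05 there was 1 (3.23%, against 4.18% of all), in Soat1, which esterifies cholesterol, and without DDT replicates 4 and 12 there were 2 of 28, in Soat1 and Osbpl6, which encodes an oxysterol binding protein family member. Plcb4, a phospholipase C, had 7 members from 18.9% to 98.3%, and Lrp4, a lipoprotein receptor family member, 3 from 58.3% to 99.2%. None was under 0.05 after adjustment.

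In Soat1, looked at closely after its values were seen, adjoining units alternated. Its 6 tested members at chr1:156451282-156451528 adjoin each other, and 5 of them are 31 bp units of a tandem repeat with 1 CpG each. From the lowest coordinate on, VEH levels were 14.9% ± 5.79, 97.5% ± 1.92, 24.4% ± 12.3, 98.6% ± 1.54, 16.5% ± 4.64 and, in the longer end fragment of 92 bp, 97.3% ± 1.68. High and low units thus took turns, and the VEH ranges of the high units (94.7% and above) and the low ones (54.5% and below) did not overlap. The units are printed because they differ by few bases, with CpGs again in capitals; unit 4 has the sequence of unit 2, which 3 further units with no level share.
Soat1 unit 1: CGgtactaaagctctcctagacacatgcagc
Soat1 unit 2: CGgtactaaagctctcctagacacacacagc
Soat1 unit 3: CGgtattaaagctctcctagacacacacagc
Soat1 unit 5: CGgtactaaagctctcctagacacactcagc
The low units 1, 3 and 5 each had a sequence of their own. The high units 2 and 4 shared theirs with the 3 further units, which had a median of 0 calls. The alternation thus ran along with sequence sharing among the 31 bp units. Reads of such near-identical units may be placed on the wrong unit, so that single values in this stretch are uncertain. Whether the alternation is one of methylation or of read placement was not tested. The fragment under 0.05 was unit 4, at 98.6% in VEH and 96.2% ± 3.13 in DDT (ANOVA p = 0.0283, adjusted p = 0.869).

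The list for insulin and growth factor signalling had 44 tested members in 15 genes, with a median VEH level of 68.8%. At an unadjusted p under 0.05 there were 3 (6.82%, against 4.18% of all), in Erbb4, a neuregulin receptor, Irs1, the adaptor of the insulin receptor, and Ptpn1, a phosphatase that acts on it. All 3 were lower in DDT, as were 109 of the 157 such members. Of all fragments at that p, 29.8% were higher in DDT, so that this direction was not particular to the list. Without DDT replicates 4 and 12 there were 2 of 43 (4.65%), in Erbb4 and Irs1. Grb14, which binds the insulin receptor, had 4 members from 1.18% to 15.4%, all within 2123 to 2612 bp of the gene start. Erbb4 had 8, from 12.7% to 97.1%, with 5 at 80% or above.

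The list for neuronal adhesion and channels held 104 tested members in 24 genes with a median VEH level of 83.3%, where 56 were at 80% or above and 20 under 20%. At an unadjusted p under 0.05 there were 4 (3.85%, against 4.18% of all), 2 of them higher in DDT (1.25% of all), and 6 of 100 without DDT replicates 4 and 12. Lrrc4c, a synaptic adhesion protein, had 7 of its 8 members at 80% or above, and Lrp1b, a giant receptor gene, ran from 42.3% to 94.7% over 7. Dlgap4, a scaffold protein of the synapse, had 7 of 21 members under 20% and 10 at 80% or above. Esrrg, which this list also holds and which encodes an estrogen-related nuclear receptor, ran from 2.07% to 94.2% over 13 members.

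Near the limits of the selection, members 2000 to 3000 bp past the gene start averaged 29.0% ± 1.28 (131 fragments), and intronic fragments left out because they lay 1000 to 2000 bp past it averaged 12.1% ± 0.664 (234 fragments). Members 2000 to 3000 bp from an island averaged 33.1% ± 2.19 (25 fragments), and no tested fragment lay just outside that limit.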

How the data were processed

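RRBS of BAT was analysed in 24 libraries. Per the study's methods, the authors trimmed 50-base single-end reads with Scythe and Sickle, aligned them to GRCm38 with Bismark 0.15.0 and Bowtie 2, and deposited, for each MspI fragment, the number of CpG calls that were methylated and that were not (counts), with an annotation. These counts were not normalized. Removal of bases added at end repair is not given in the sources used here. Every intronic member started at an MspI site of GRCm38.

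The annotation's distance column proved to be measured from the start of the named gene, negative inside it, so that the stricter limit of 5000 bp was applied to the gene start. Its island distance was not measured edge to edge. Introns, exons and transcript starts came from GENCODE M21, and sequences and repeat masking from the RefSeq copy of GRCm38. Transcript starts of all genes were counted, not only those of the named gene. The intron number was that of the longest transcript of the named gene.

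The level was 100 times methylated calls over all calls, with at least 10 calls per library and at least 8 libraries per group. DDT and VEH were compared by the ANOVA F test named by the study, adjusted over all 20225 tested fragments of the table. Library means were compared by permutation (100000 resamples) or by exact sign flips within libraries (4096). Strata are means of fragments within a library, given as mean ± SD over libraries. Alternatives were quasi-binomial regression, limma on log2((methylated + 1) / (not methylated + 1)), call minimums of 5 and 20, the replicate number as a block, log10 depth as a covariate, other memberships and each library left out. Leaving out DDT replicates 4 and 12 together, and restricting fragments by transcript start, exon overlap, island criteria, CpG classes or length, were added after seeing the data.

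The members and gene lists were chosen with earlier results of these data known, so no list gives independent support. Named fragments were the 10 with the smallest p, the 5 with the lowest and the 5 with the highest SD over VEH libraries among those of 20 to 80% with a level in all libraries, the 5 with the lowest level (1 per gene), the 3 genes with the most tested members, and up to 6 genes per list with the most tested members. Some fragments that this rule names are not reported here. The tests were tested on simulated data. Python 3.11.15, NumPy 2.4.6, pandas 2.3.3, SciPy 1.17.1, matplotlib 3.10.9, R 4.3.3 and limma 3.58.1 were used.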

Additional observations from a re-analysis of the deposited data

How the results depend on the processing

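Depth limits the members that could be tested to 23.2%, with a shorter median length than the whole, and levels of fragments within read length were lower at equal CpG number, with the cause not tested. The count of 0 members after adjustment held under every alternative run. The unadjusted count of 157 became 245 with quasi-binomial regression (7.96%, against 7.72% of all). With a level in all 24 libraries, which leaves 1114 members, it was 51 (4.58%, against 4.24%). At 52 bp or more it was 79 of 1620 (4.88%, against 4.18% of tested fragments of every length). Leaving out single libraries gave 132 to 188. The share of these members that were higher in DDT was 30.6%, against 29.8% over all fragments at that p. It was 23.5% with a level in all 24 libraries and 40.1% with the replicate number as a block. Adjusting for library depth it was 38.5%, and without DDT replicates 4 and 12 it was 43.4%. Those replicates had few calls at members but not few calls in all, as given above. With single libraries left out it ran from 22.6% (without VEH replicate 8) to 41.4% (without DDT replicate 12). The difference in mean member level stayed between -0.922 and -0.435 points and the difference in the gap between introns and exons between -0.221 and -0.0518 with single libraries left out, with no p under 0.05. The difference in mean member level was -2.55 points over all tested members with a level in the library (permutation p = 0.107) and -4.98 points with calls pooled over all members (p = 0.103).

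The contrast of introns with exons reversed to 6.52 points over 1000 bp from a transcript start. The contrast with upstream fragments fell to 0.0311 points, and that of CpG-poor with CpG-rich members to 0.386 points, where the island criteria were not met. The cause was not tested. The contrasts by distance, by first intron and with boundaries kept their sign and a sign-flip p under 0.05 in all alternatives run.

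Same-numbered DDT and VEH libraries did not deviate together (r from -0.180 to 0.199, median 0.0110). Of 12 pairs 3 were above 0.1, and 1 VEH library correlated best with its own number. The labels do not say whether the numbers pair the litters, and these correlations cannot settle it. With the replicate block the unadjusted count was 167, and the p of the mean difference and of the gap were 0.294 and 0.0640.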
